A study of Drosophila melanogaster with 7 samples.

Results

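Lipogenic cells are described here as the cells of Drosophila midgut tumors in which transcripts of the fatty acid synthesis enzymes FASN1, ACC and ATPCL were captured more than once. A cell was taken as a member when it held 2 or more unique molecular identifiers (UMIs, each counting 1 captured transcript) summed over these 3 genes, and 1100 of 7621 kept cells met this rule. They were set against zero cells, the 5067 kept cells with no UMI of the 3 genes, and 1454 cells with exactly 1 UMI fell between the classes. Kept cells had 100 to 2000 detected genes, at most 15% of UMIs from the mitochondrial genome and at least 300 UMIs.

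All tumors had 1 genotype and 1 treatment, so every comparison was made between cells of the same library. On a yw background, 1 parent carried the heat shock recombinases HS-flp and HS-mflp5, with esg-gal4 and UAS-flybow on another chromosome and Tub-Gal80 on FRT82B. The other parent carried HS-flp, then UAS-RasV12, and on FRT82B the mutations Apc2N175K and ApcQ8. In such flies a heat shock, here 2 h at 37 °C in young adults, makes clones that lose both Apc genes, and esg-gal4, a driver of intestinal stem cells and enteroblasts, then expresses the oncogenic Ras in them. Tumors were collected at least 21 days later from flies selected for GFP fluorescence, and no normal gut was included, so nothing below compares tumor with normal tissue. There were 6 droplet libraries of 1 tumor each (Tind1 to Tind6), which served as replicates, and 1 library that pooled 6 tumors (Tgrp), in which a cell cannot be traced to its tumor. P-values therefore measure how evenly the difference between cells of the same tumor held over these 6 tumors.

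Fatty acid synthesis starts from citrate that leaves the mitochondrion. ATPCL, ATP citrate lyase, cleaves it into acetyl-CoA and oxaloacetate, ACC, acetyl-CoA carboxylase, turns acetyl-CoA into malonyl-CoA, and FASN1, fatty acid synthase, builds long-chain fatty acids from it with NADPH as reductant. In flies the pathway is best known from the fat body and oenocytes, and the transcription factor SREBP, escorted by SCAP, is a known activator of its genes. In the annotation BDGP6.54, FASN1 (FBgn0283427) lies on chromosome 2L at 3056598 to 3068177 on the plus strand, ACC (FBgn0033246) on 2R at 7974115 to 7991862 on the minus strand, and ATPCL (FBgn0020236) on 2R at 15993531 to 16001290 on the minus strand.

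The 7 libraries held between 289733 (Tind3) and 6354105 (Tgrp) UMIs in all and between 211 and 2922 kept cells. Tind4 shared 116 cell barcodes with Tind5, while no other 2 libraries shared more than 3, and the Tind5 cells concerned were dropped. Keeping them gave 139 instead of 132 called genes in the comparison below. The single transcript lncRNA:CR34335 took between 4.52% and 22.1% of the UMIs of lipogenic cells of the 6 tumors, and between 15.4% and 39.1% of those of depth-matched zero cells. It was lower in lipogenic cells of 5 tumors, while in Tind6 it took 16.1% in lipogenic and 15.4% in zero cells. The comparison was also run with this transcript left out of depth and library size, which redraws the pairs of cells. Of 120 called genes tested there, all kept their sign but only 38 stayed called. Among genes described below, Gclm, ox, Mdh2, Shmt, Clic, Delta and Ald1 lost their calls (adjusted p between 0.129 and 0.286). So did mt:ND3, mt:tRNA:Ser-GCT, lncRNA:noe, Pex19, CG34232, CG3987, CG17224 and Neb-cGP (adjusted p between 0.0746 and 0.337). CG2065 and Orct2 were not tested there, and the lost calls named here are not all of them. Such values are given beside only some of the results.

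Members were unevenly spread over the libraries. There were 457 lipogenic cells in Tind1 (22.1% of kept cells, exact 95% binomial interval 20.4 to 24.0%), 50 in Tind2 (5.62%, 4.20 to 7.35%) and 15 in Tind3 (7.11%, 4.03 to 11.5%). Tind4 had 139 (18.1%, 15.4 to 21.0%), Tind5 had 16 (3.26%, 1.87 to 5.24%), Tind6 had 11 (4.03%, 2.03 to 7.10%) and Tgrp had 412 (14.1%, 12.9 to 15.4%). The mean of the 6 tumors was 10.0% ± 8.01 (SD, n = 6). These shares are a description, and the intervals cover counting error only. Tind4 and Tind1, whose kept cells were deepest (median 2383.5 and 1741 UMIs), had the largest shares, while Tind3, with the shallowest (509 UMIs), had a larger share than Tind2 (1079), Tind5 (742) and Tind6 (540.0). No cell type was certain to lack the 3 genes, so a background share from free RNA could not be set.

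**Figure D1:**
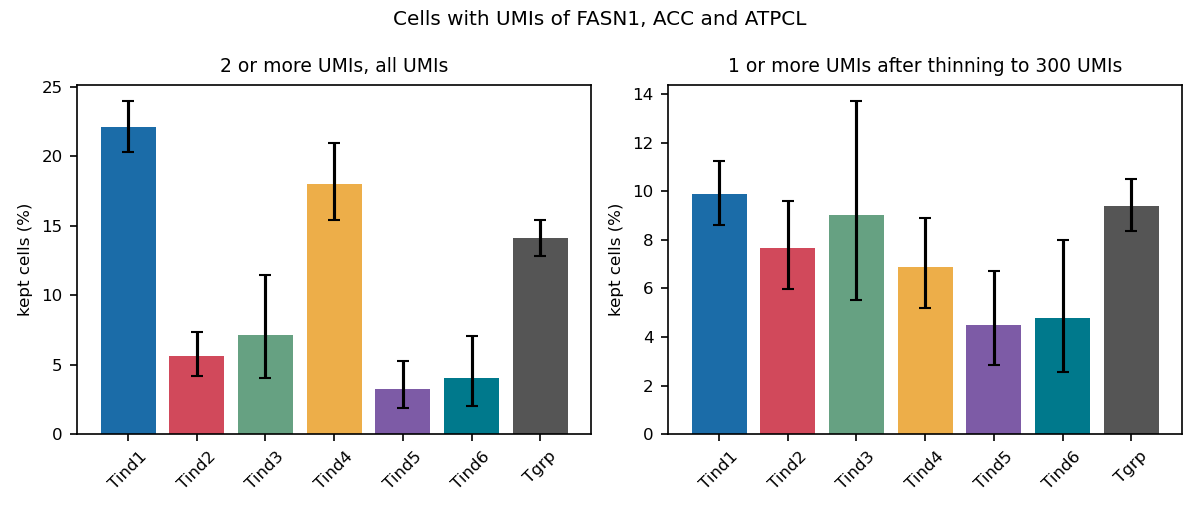
Percent of kept cells with 2 or more UMIs of FASN1, ACC and ATPCL at full depth (left), and with 1 or more after each cell was thinned to 300 UMIs (right), by library. Bars are shares and error bars exact 95% binomial intervals. The range over the 6 tumors was 3.26 to 22.1% on the left and 4.48 to 9.88% on the right. The cutoffs differ, so these ranges do not show the effect of depth alone. With 2 or more UMIs after thinning the range was 0 to 1.90%.

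Once every cell was thinned to 300 UMIs, 7.11% ± 2.19 of the kept cells of a tumor held at least 1 UMI of the 3 genes (SD, n = 6), between 4.48% in Tind5 and 9.88% in Tind1. Only 0.648% ± 0.669 then held 2 or more, so the class itself can be seen only in deep cells. Lipogenic cells had a median of 3751 UMIs in Tind1, against 1323 in zero cells, and 978 in Tind3, against 480.0. The number of members lay near what an even level of the 3 genes over the cells of a library gives at their depths, with 470.5 cells in Tind1 for 457 observed, 152.1 in Tind4 for 139, 405.0 in Tgrp for 412, and 41.4 in Tind2 for 50. In Tind3, Tind5 and Tind6 the even level gave 9.70, 11 and 8.80 cells, for 15, 16 and 11 observed. The cells just inside the rule, with exactly 2 UMIs, held 625, 915, 1747, 461, 1138 and 831 CPM of the 3 genes (UMIs scaled to the same total in every group of cells) in the 6 tumors by number and 789 CPM in Tgrp. The cells just outside, with 1 UMI, held 431, 591, 1015, 277, 744 and 864 CPM in the tumors and 486 CPM in Tgrp. Only in Tind6 did they hold more than the cells just inside. The rule used these same UMIs, so this contrast describes the cutoff and tests nothing about the class.

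FASN1 was the most abundant of the 3 genes in members, and also in each library as a whole. Over the whole library of a tumor it had 107.3 to 306.3 CPM, against 32.1 to 91.0 for ACC and 49.5 to 101.0 for ATPCL. In Tgrp the levels were 219.3, 64.7 and 71.7 CPM. The lead of FASN1 was therefore not particular to the class, and whether its share differed between members and the library was not tested. Of the 1100 members, 968 (88.0%) held FASN1, 505 (45.9%) ACC and 466 (42.4%) ATPCL, and 731 (66.5%) held 2 or 3 of the genes. The largest combinations were FASN1 with ACC (320 cells), FASN1 alone (296) and FASN1 with ATPCL (244), while 108 cells held all 3 genes, 59 ACC with ATPCL, 55 ATPCL alone and 18 ACC alone. FASN1 made up 57.6, 64.9, 73.8, 56.9, 63.6 and 44.0% of the 3 genes' UMIs in members of Tind1 to Tind6, and 64.0% in Tgrp. ACC was second in Tind1 and Tind5 and ATPCL second in the other libraries. The highest sum in 1 cell was 11 UMIs, in Tind5, and the median member held 2 or 3.

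Whether the 3 transcripts go together was tested by taking each gene in turn out of the rule and measuring it in cells classed by the other genes (2 or more UMIs against 0, depth-matched within each tumor). ACC was higher in cells classed by FASN1 and ATPCL in 6 of 6 tumors. It had 123, 65.9, 167, 71.8, 248 and 82.9 CPM in the classed cells of Tind1 to Tind6, against 46.0, 38.5, 55.5, 17.8, 0 and 0 CPM in the cells with 0. These values rest on 129, 7, 3, 40, 7 and 1 UMIs, against 43, 4, 1, 9, 0 and 0. The mean log2 ratio was 1.79 ± 1.10 (SD, n = 6, exact two-sided sign-flip permutation p = 0.03125, the smallest that 6 tumors allow), but 0.0938 after Benjamini-Hochberg adjustment over the 3 genes. Tgrp, not in the test, had 114 against 44.8 CPM.

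FASN1 was higher in cells classed by ACC and ATPCL in 5 of 6 tumors. It had 327, 269, 830, 323, 701 and 91.3 CPM in these cells, against 183, 233, 425, 83.4, 81.4 and 93.0 CPM in cells with 0, and 367 against 194 CPM in Tgrp. The mean log2 ratio of the tumors was 1.04 ± 1.03 (SD, n = 6, exact permutation p = 0.0625, adjusted 0.0938). Tind3, Tind5 and Tind6 gave only 2, 4 and 5 such cells.

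ATPCL, classed by FASN1 and ACC, gave no clear difference. It had 84.8, 111, 76.8, 141, 127 and 69.4 CPM, against 74.7, 37.8, 157, 82.5, 68.0 and 214 CPM, and was higher in 4 of 6 tumors with a mean log2 ratio of 0.19 ± 1.01 (SD, n = 6, exact permutation p = 0.594, adjusted 0.594). In Tgrp it had 97.2 against 46.9 CPM. No gene passed the adjusted test, so the name of the class rests on the rule, and the largest ratio was that of ACC.

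**Figure D2:**
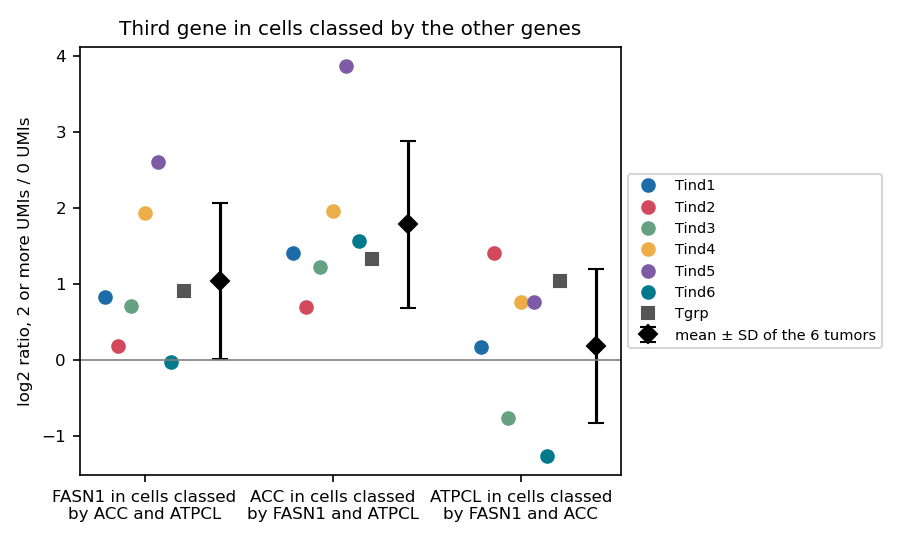
Log2 ratio of each gene's CPM between cells with 2 or more and with 0 UMIs of the other genes, for the 6 tumors (circles) and Tgrp (squares), with the mean and SD of the 6 tumors (diamonds). All 6 tumors lie above 0 for ACC, 5 for FASN1 and 4 for ATPCL.

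All other genes were then compared between lipogenic cells and zero cells matched for depth within each tumor (343, 47, 14, 129, 14 and 9 pairs of cells in Tind1 to Tind6, and 371 in Tgrp). Members without a zero cell of like depth were left out. In Tind1, 343 of 457 members stayed, with a median of 2932 UMIs, against 3751 for all its members. Levels are scaled CPM, that is UMIs summed over the cells of a class and tumor, as CPM after TMM scaling, and folds are log2 of lipogenic over zero cells. Of 1306 genes tested with edgeR's quasi-likelihood test with the tumor as a block, 132 (10.1%) had an adjusted p under 0.05, of which 43 (3.29%) were higher and 89 (6.81%) lower in lipogenic cells. The lower genes included small heat shock proteins, metallothioneins, ferritin and glutathione enzymes, and the higher ones included acyl carriers, a desaturase and subunits of the respiratory chain. In such sums, more cells with a transcript and more of it per cell cannot be told apart. Matching was incomplete in the deep libraries, where the mean depth of lipogenic cells stayed 1.13 times (Tind1) and 1.12 times (Tind4) that of zero cells. Calls fell to 10 of 504 tested genes without Tind1, 21 of 505 without Tind4 and 32 of 511 without Tind2. They fell to 39 of 1215 (3.21%, with 5 or 0.412% higher and 34 or 2.8% lower) when lncRNA:CR34335 was left out of depth and library size.

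The direction of the calls depended on the scaling. With library size in place of TMM the median of all tested genes moved by 0.27 on the log2 scale, and 156 genes were called higher and 52 lower. Folds below are relative to the TMM median, which was 0.01. In Tgrp, whose cells were in no fit of the 6 tumors, 42 of the 43 higher and all 89 lower genes had the same direction, against 77.9% of the genes not called in the 6 tumors (915 of 1174). CG3987 was the exception among the higher genes.

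Only 8 called genes stayed past the threshold without each tumor in turn, and all 8 were lower in lipogenic cells: the heat shock protein genes Hsp23, Hsp26, Hsp27 and Hsp83, the heat-inducible lncRNA:Hsromega, the stress-responsive Gadd45, CG8620 and lncRNA:CR34335. No higher gene did, since each lost its call, or was no longer tested, without at least 1 tumor.

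A desaturase and carriers of fatty acids and acyl-CoA were higher in lipogenic cells. Fatty acid binding protein, fabp, had 763, 599, 535, 579, 792 and 489 scaled CPM in lipogenic cells of Tind1 to Tind6, against 389.6, 396, 604, 152, 262 and 325 in zero cells. It was higher in 5 of 6 tumors, with Tind3 the exception, and in Tgrp (785 against 338), and its log2 fold change was 1.10 (SE 0.23, adjusted p = 0.0046). Its call was lost without Tind1 (adjusted p = 0.0841) or Tind4 (0.0565) and kept without lncRNA:CR34335 (0.95, adjusted p = 0.0332).

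Desat1, the stearoyl-CoA desaturase that makes monounsaturated fatty acids from the products of FASN1, had 406, 472, 535, 501, 396 and 366 scaled CPM in lipogenic cells, against 341, 281, 336, 292, 105 and 129.8 in zero cells. The 2 classes did not overlap over the 6 tumors, as was so for 12 of the 1306 genes (0.919%). Its log2 fold change of 0.65 (SE 0.20, adjusted p = 0.0468) was just past the threshold and was lost without any 1 of 5 tumors (adjusted p up to 0.145, without Tind4) and without lncRNA:CR34335 (0.49, adjusted p = 0.182). Acbp2, an acyl-CoA binding protein chosen here after its values were seen, had the largest rise of the 43, with 276, 579.7, 238, 187, 252 and 183 scaled CPM in lipogenic cells, against 86.5, 204, 0, 20.0, 105 and 195 in zero cells. It was higher in 5 of 6 tumors and level in Tind6, with a log2 fold change of 1.90 (SE 0.30, adjusted p = 3.05e-04). Without Tind1, Tind2 or Tind4 it was too low to be tested, and without lncRNA:CR34335 the fold was 1.18 (adjusted p = 0.0747).

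Most other genes of lipid metabolism were too low in the 6 tumors to test. Of 34 listed genes of fatty acid activation, elongation and desaturation 1 was tested (Desat1), of 26 of lipid storage, lipolysis and transport 4, of 30 of triacylglycerol and phospholipid synthesis none, and of 9 of the mevalonate pathway 1. Among the tested, only Desat1 and fabp passed, both higher, beside 3.29% higher of all genes tested. The lipid droplet protein Lsd-2 had 72.3, 118, 0, 60.3, 72 and 244 scaled CPM in lipogenic cells, against 93.8, 536, 0, 85, 105 and 129.8 in zero cells, with no UMI in Tind3 and a log2 fold change of -0.76 (SE 0.31, adjusted p = 0.125). The activator SREBP had 483, 344, 535, 469, 540.1 and 366 scaled CPM, against 493, 255, 403, 302, 523 and 649, with overlapping classes and a log2 fold change of 0.22 (SE 0.20, adjusted p = 0.525), and its escort SCAP had -0.53 (SE 0.28, adjusted p = 0.231).

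A fit that added Tgrp as a seventh block, a single library of pooled tumors, brought in deeper sums and called 512 of 2167 genes (23.6%; 192 or 8.86% higher, 320 or 14.8% lower). In it, 4 of 7 tested genes of fatty acid oxidation were higher and none lower: Mcad, a medium-chain acyl-CoA dehydrogenase, by 1.18 (adjusted p = 0.00681), Echs1, an enoyl-CoA hydratase, by 0.82 (adjusted p = 0.00439), wal, an electron transfer flavoprotein subunit, by 0.78 (adjusted p = 0.00719), and scu, a hydroxyacyl-CoA dehydrogenase, by 0.68 (adjusted p = 0.0198). Of these only wal was tested in the 6 tumors alone (0.73 (SE 0.34, adjusted p = 0.174)). Summed over the 27 listed oxidation genes, lipogenic cells had 1104, 1218, 1130.4, 984, 1980.2 and 1160.5 scaled CPM in Tind1 to Tind6, against 783, 881, 269, 705, 1151 and 1104 in zero cells, higher in 6 of 6 tumors. The sums of Tind3 and Tind6 rest on few UMIs. Without lncRNA:CR34335, 2 of the oxidation genes were tested in the 6 tumors, with a median log2 fold change of -0.0155 and none called.

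Some genes that feed the pathway were called in the same fit, beside 8.86% higher and 14.8% lower of all its genes. Pyruvate carboxylase, PCB, which makes oxaloacetate from pyruvate, rose by 1.03 (adjusted p = 0.017), and kdn, citrate synthase, rose by 0.62 (adjusted p = 0.034), 2 of 6 tested genes of acetyl-CoA and citrate supply. Of 7 tested genes of NADPH supply the transketolase CG8036 rose by 0.49 (adjusted p = 0.0288), and the malic enzyme Men, which makes NADPH, was lower, with -0.81 (adjusted p = 0.00414). Lipin, Lpin, a phosphatidate phosphatase, was 1 of 9 tested genes of glycerolipid synthesis to rise, by 0.68 (adjusted p = 0.0106). Lsd-2 (-0.81) and SCAP (-0.56) were lower in this fit and SREBP did not pass (0.18).

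**Figure D3:**
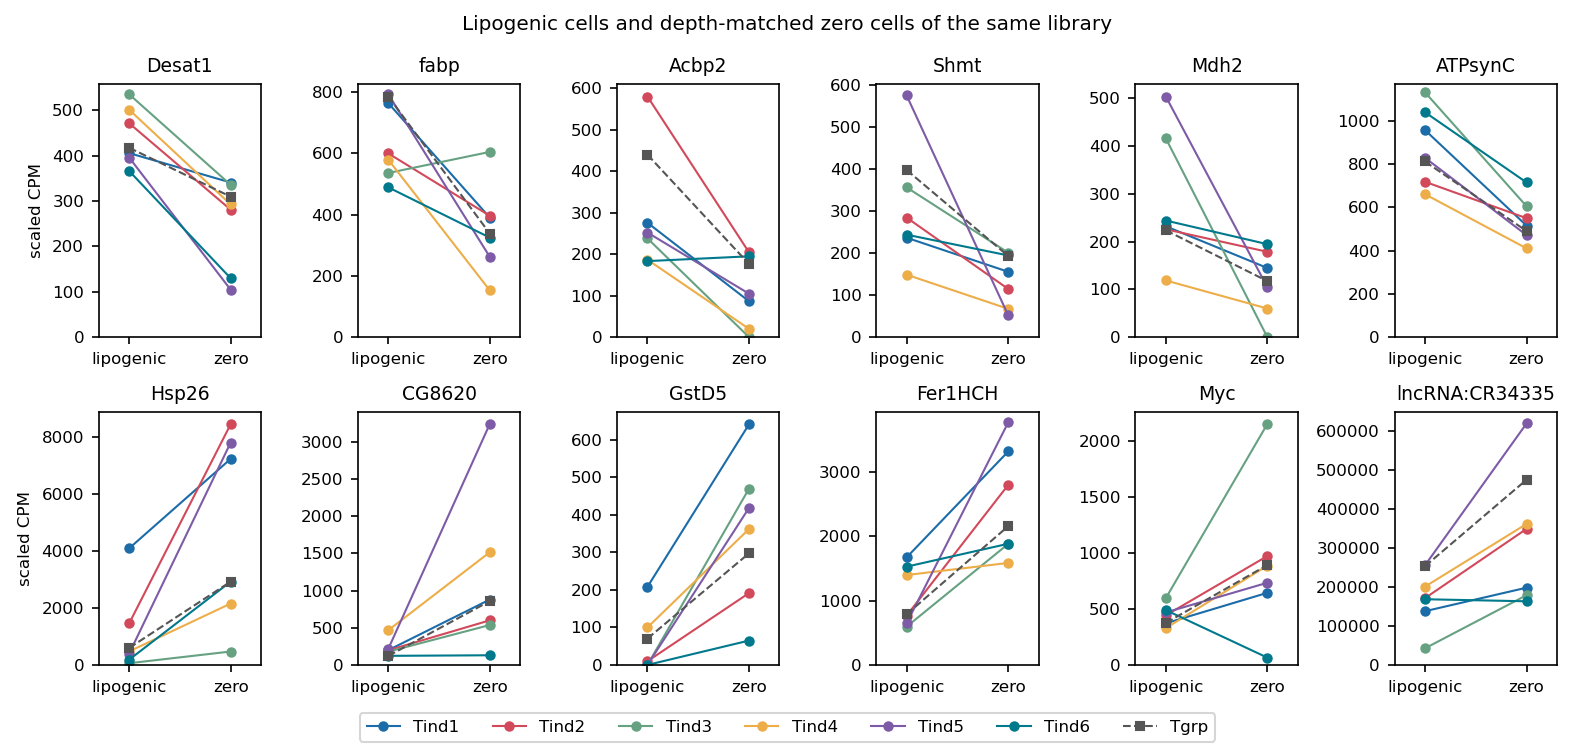
Scaled CPM of 12 genes in lipogenic cells (left of each panel) and depth-matched zero cells of the same library (right), joined by library, with Tgrp dashed. Each panel has its own axis from 0. Desat1 and ATPsynC are higher in lipogenic cells of all 6 tumors, and Hsp26, CG8620, GstD5 and Fer1HCH lower in all 6.

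Nuclear genes of the respiratory chain were higher as a group in most tumors. Of 84 listed genes 49 were tested, 7 were called higher and none lower, beside 3.29% higher and 6.81% lower of all genes tested. Their median log2 fold change was 0.48, beside 0.01 for all genes. With library size only the median was 0.75, and without lncRNA:CR34335 it was 0.41 with none called. The 7 were ATPsynbeta, ATPsynC and ATPsynF of the ATP synthase, COX7A and COX8 of complex IV, and ND-MWFE and ND-PDSW of complex I. Summed over the list, lipogenic cells had 23376, 19337, 16479.6, 21447, 21207 and 15392 scaled CPM in Tind1 to Tind6, against 16909.9, 15657, 7721, 15720.1, 10100.1 and 16621 in zero cells, lower only in Tind6. In the fit with Tgrp, 27 of 58 tested were higher and none lower, beside 8.86% and 14.8% of all genes in that fit.

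ATPsynC, the c subunit of the ATP synthase rotor, had 956, 717, 1130.4, 659.9, 828 and 1038 scaled CPM in lipogenic cells, against 515, 549, 604, 409.9, 471 and 714 in zero cells, higher in 6 of 6 tumors and in Tgrp (811 against 489.9). Its log2 fold change was 0.70 (SE 0.17, adjusted p = 0.0135) and its call was lost without Tind1 (adjusted p = 0.12) or Tind4 (0.0511). ox, oxen, a small subunit of complex III that was not on the list, had 685, 619, 595, 458, 684 and 549.7 scaled CPM, against 381, 370.4, 67.1, 280.0, 262 and 259.7, with no overlap and a log2 fold change of 0.91 (SE 0.20, adjusted p = 0.0062). Without Tind1 its adjusted p was 0.0766.

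The mitochondrial genome itself gave a weaker picture. Mitochondrially encoded RNA was 7.34, 8.52, 11.7, 6.93, 8.06 and 10.2% of all UMIs in lipogenic cells of Tind1 to Tind6, against 6.85, 8.57, 8.96, 5.98, 7.24 and 10.4% in zero cells. The difference of 0.79 points ± 1.07 (SD, n = 6) was positive in 4 of 6 tumors and did not pass (exact two-sided sign-flip permutation p = 0.125). In Tgrp the shares were 9.16% and 7.33%. Of 14 tested mitochondrially encoded genes, mt:ND3 (0.64) and mt:ND5 (0.48) of complex I were higher and mt:tRNA:Ser-GCT (-1.08) was lower. Of all genes tested 3.29% were higher and 6.81% lower. The call of mt:ND3 was lost without Tind1, Tind4 or Tind5, and that of mt:ND5 without Tind1, Tind3, Tind5 or Tind6. That of mt:tRNA:Ser-GCT was lost without Tind1, Tind2 or Tind4. Without lncRNA:CR34335, none of 15 tested mitochondrially encoded genes was higher and 1 was lower, which was not mt:tRNA:Ser-GCT (adjusted p = 0.219).

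Of 11 tested genes of the TCA cycle 1 was higher and none lower, beside 3.29% higher and 6.81% lower of all genes tested. The median of the 11 was 0.39. Mdh2, the mitochondrial malate dehydrogenase, had 232, 226, 416, 119, 504 and 244 scaled CPM in lipogenic cells, against 145, 179, 0, 60.0, 105 and 195 in zero cells, with a log2 fold change of 0.87 (SE 0.27, adjusted p = 0.0456). It was higher in 6 of 6 tumors, though Tind3 held no UMI of it in zero cells, and its call was lost without Tind1, Tind2, Tind4 or Tind5 (adjusted p up to 0.187). Shmt, serine hydroxymethyltransferase of 1-carbon metabolism, had 237, 285, 357, 149, 576 and 244 scaled CPM, against 156, 115, 201, 67.5, 52.3 and 195, higher in 6 of 6 tumors with a log2 fold change of 1.00 (SE 0.26, adjusted p = 0.0179). Without Tind1, Tind2 or Tind4 its adjusted p was between 0.0557 and 0.117.

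The genes that the study names for its metabolic comparison did not pass in the 6 tumors. Ldh, lactate dehydrogenase, had 3839, 1867, 892, 2866, 504 and 4336 scaled CPM in lipogenic cells, against 5931, 2733, 5707, 2377, 2146 and 3766 in zero cells. It was lower in Tind1, Tind2, Tind3 and Tind5 and higher in Tind4 and Tind6, and its log2 fold change was -0.64 (SE 0.24, adjusted p = 0.0964). Gdh, glutamate dehydrogenase, had 0.75 (SE 0.30, adjusted p = 0.11), COX5B of complex IV 0.66 (SE 0.21, adjusted p = 0.0518), blw, the ATP synthase alpha subunit, 0.51 (SE 0.23, adjusted p = 0.167), and RFeSP, the Rieske protein of complex III, 0.25 (SE 0.21, adjusted p = 0.486). With Tgrp as a seventh block, Ldh was lower (-0.80) and Gdh (0.74), COX5B (0.61) and blw (0.54) were higher, while RFeSP did not pass. Pepck2 had 24 UMIs in lipogenic and 17 in zero cells over the 6 tumors and Pepck1 had none in either class, so neither was tested.

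Of 12 tested glycolytic genes 1 was lower and none higher, beside 6.81% lower and 3.29% higher of all genes tested. It was aldolase, Ald1 (-0.67 (SE 0.21, adjusted p = 0.0468), not past the threshold without 5 of the 6 tumors, adjusted p up to 0.191). The median was -0.21, and 0.06 with library size only. Summed over the list, lipogenic cells had 14019, 9177, 4462, 10773, 6913 and 11421 scaled CPM in Tind1 to Tind6, against 19076, 12643, 13966, 8904, 12403 and 10583 in zero cells, lower in 4 of 6 tumors (Tind4 and Tind6 were higher) and in Tgrp (6296 against 10570.4). In the fit with Tgrp, 4 of the 12 were lower and none higher, beside 14.8% lower of all genes in that fit, with a median of -0.38.

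Heat shock genes were lower in lipogenic cells. Of 17 listed genes 10 were tested, 8 were lower and none higher, beside 6.81% lower and 3.29% higher of all genes tested, with a median log2 fold change of -1.28, or -1.04 with library size only and -1.10 (7 lower) without lncRNA:CR34335. Summed over the list, lipogenic cells had 11897, 5434, 1189.9, 3069, 3456 and 1466 scaled CPM in Tind1 to Tind6, against 20176, 22554, 4230.0, 8534, 27474 and 8440.3 in zero cells, and were lower in 6 of 6 tumors and in Tgrp (3494 against 10163). The level in either class thus differed widely between tumors, and the classes overlapped.

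Hsp26, a small heat shock protein that binds unfolded proteins, had 4087, 1454, 59.5, 473, 396 and 183 scaled CPM in lipogenic cells, against 7226, 8442, 470.0, 2152, 7797 and 2922 in zero cells, and 593 against 2921 in Tgrp. Its log2 fold change was -2.28 (SE 0.28, adjusted p = 2.85e-05), and -1.69 (adjusted p = 6.24e-04) without lncRNA:CR34335. Hsp23, its neighbour and relative, had 2157, 806, 0, 417, 684 and 305 scaled CPM, against 3940.1, 4968, 336, 1642, 9891 and 2013, with a log2 fold change of -2.19 (SE 0.27, adjusted p = 2.85e-05). Hsp27 (-1.59), Hsp68 (-1.43), the co-chaperone DnaJ-1 (-1.19), lncRNA:Hsromega (-1.16) and Hsp83, the fly Hsp90 (-0.99), were lower too. Hsp70Bc (-1.36) has near-identical copies, between which reads can be split. After cells with 2% or more heat shock UMIs were left out, a step that bears on these genes by construction, 88 genes were called (34 higher, 54 lower), of which 83 were among the 132.

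MtnE and MtnD, metallothioneins chosen here after their values were seen, had the largest falls of the 89 lower genes, with log2 fold changes of -3.83 (SE 0.39, adjusted p = 6.70e-06) and -2.89 (SE 0.39, adjusted p = 1.07e-04). MtnE rested mainly on Tind1, with 36, 0, 0, 15, 0 and 0 UMIs in lipogenic cells of Tind1 to Tind6, against 646, 1, 0, 67, 1 and 3 in zero cells. MtnD had 16, 1, 0, 15, 0 and 1 UMIs, against 68, 1, 0, 126, 4 and 3. Neither was high enough to test without Tind1, Tind2 or Tind4. Both were high enough to test only through sums of zero cells. Their p-values therefore describe the fall and are no separate support for it.

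GstD5, a glutathione S-transferase from a cluster of related genes, had 208, 9.83, 0, 99.9, 0 and 0 scaled CPM in lipogenic cells, against 642, 192, 470.0, 362, 419 and 64.9 in zero cells, lower in 6 of 6 tumors with a log2 fold change of -2.02 (SE 0.29, adjusted p = 1.59e-04). These levels rest on 216, 1, 0, 53, 0 and 0 UMIs in lipogenic cells, against 527, 15, 7, 145, 8 and 1, so mainly on Tind1 and Tind4. Gclm, the regulatory subunit of the enzyme that starts glutathione synthesis, had 150.3, 98.3, 119, 115, 36 and 122, against 377, 204, 269, 232, 262 and 259.7, with no overlap and a log2 fold change of -1.22 (SE 0.23, adjusted p = 0.00261). It was the only 1 of 13 tested genes on the antioxidant list to pass, beside 6.81% lower of all genes tested. In the fit with Tgrp 6 of 16 were lower and 1 higher, beside 14.8% lower and 8.86% higher of all its genes.

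Both subunits of ferritin, the iron store, were lower. Fer1HCH, the heavy chain, had 1671, 766, 595, 1397, 648 and 1527 scaled CPM in lipogenic cells, against 3317, 2797, 1880.0, 1585, 3768 and 1883 in zero cells, and its log2 fold change was -1.14 (SE 0.23, adjusted p = 0.00336). Fer2LCH, the light chain, had -0.93 (SE 0.18, adjusted p = 0.00306). Without Tind1 or Tind2 the adjusted p of Fer1HCH was 0.0532 or 0.0557, and that of Fer2LCH without Tind1 was 0.0532.

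Other genes with a large fall and the same sign in every tumor with enough UMIs were CG8620 (-2.06), cv-2, a BMP-binding protein (-1.99), rdog (-1.82), CG2065 (-1.73), rols, an adaptor of muscle fusion (-1.68), Ifrd1 (-1.57), lncRNA:noe (-1.56) and Arc2, a Gag-like capsid protein (-1.52). Among these, rdog and CG2065 were high enough to test only through zero cells, so their calls are a description. CG8620 had 199, 197, 178, 468, 216 and 122 scaled CPM in lipogenic cells, against 880.3, 600.2, 537, 1517, 3245 and 129.8 in zero cells. It was 1 of the 3 genes called when the classes were drawn after thinning to 300 UMIs, and with lncRNA:CR34335 the only pair among those 3 that was also among the 132. Myc, the growth regulator, had 371, 442, 595, 328, 468 and 489 scaled CPM, against 643, 971, 2149, 885, 733 and 64.9, lower in every tumor but Tind6, with a log2 fold change of -1.02 (SE 0.24, adjusted p = 0.00982). Without Tind1, Tind2 or Tind4 its adjusted p was between 0.0557 and 0.179.

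The largest rises chosen by the same rule were in Orct2, an organic cation transporter family member (1.29), CG7484 (1.23), CG3987 (1.19), the scramblase scramb2 (1.09), CG34232 (1.08), Pex19, which brings membrane proteins to peroxisomes (1.05), Shmt, ox, Mdh2, Clic, a chloride intracellular channel protein (0.86), CG17224 (0.85) and Neb-cGP (0.75). Among these rises, Orct2, CG7484 and Pex19 were high enough to test only through lipogenic cells, so their calls are a description. Clic had 573, 1012, 952, 518, 648 and 611 scaled CPM in lipogenic cells, against 346, 396, 403, 379.9, 157 and 454 in zero cells, with no overlap. Of these and the other named higher genes, CG7484, scramb2, fabp, HmgD, a chromosomal protein, and awd, a nucleoside diphosphate kinase, were the 5 still called without lncRNA:CR34335, at log2 fold changes of 1.24, 0.92, 0.95, 0.85 and 0.70.

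**Figure D4:**
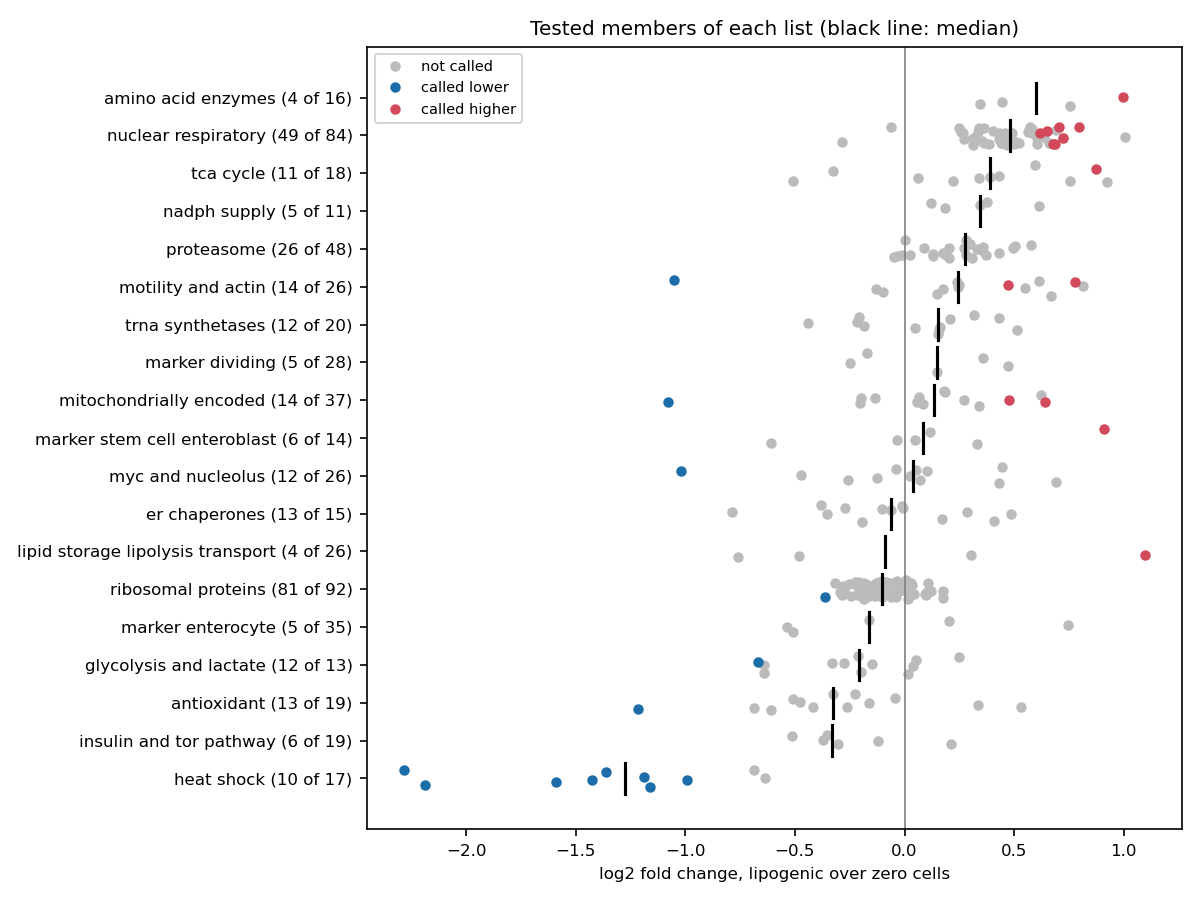
Log2 fold change of every tested member of each list with at least 4 tested members, with called genes in color and the median as a black line. Numbers beside each name give tested of listed members. Heat shock genes have the lowest median (-1.28), and amino acid enzymes (0.60) and nuclear respiratory genes (0.48) the highest.

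Markers of the other cell types of the gut and its surroundings were checked for both classes. Stem cell and enteroblast markers, the cells the driver marks, were present in both, with 2138 to 3882 scaled CPM summed over 14 genes in lipogenic cells and 2350.0 to 4432 in zero cells. Of 6 tested only Delta, the Notch ligand of intestinal stem cells, was called higher, beside 3.29% higher of all genes tested. Delta had 128, 147, 59.5, 398, 180.0 and 489 scaled CPM in lipogenic cells, against 56, 38.3, 67.1, 222, 157 and 519 in zero cells. It was higher in 4 of 6 tumors with a log2 fold change of 0.91 (SE 0.25, adjusted p = 0.0272), and without Tind1, Tind2 or Tind4 its adjusted p was between 0.0533 and 0.32. Ras85D, the gene of the oncogene, had 2247, 2977, 2201, 2639, 2808 and 2259.9 scaled CPM, against 2412, 4061, 1880.0, 1559.8, 2564 and 1688, with a log2 fold change of 0.14 (SE 0.15, adjusted p = 0.614).

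Markers of the fat body, the main lipogenic organ, were near 0 in both classes. Their sum over 20 genes was 0 to 30.2 scaled CPM in lipogenic cells and 0 to 67.1 in zero cells, 9 of the 20 had no UMI, among them the yolk and larval serum protein genes Yp1, Yp2, Lsp1alpha and Lsp2, and none was high enough to test. Tracheal markers summed to 0 to 12.5 scaled CPM in lipogenic cells and 0 to 38.3 in zero cells, and Malpighian tubule markers to 9.80 to 119 and 0 to 108. Of 35 enterocyte markers 25 had no UMI, 6 of the 7 listed trypsins and both amylases among them, and the sums ranged over 252 to 2201 scaled CPM in lipogenic cells and 471 to 2120 in zero cells.

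Hemocyte markers summed to 595 to 1729 scaled CPM in lipogenic cells and 1652 to 4030 in zero cells, but this sum is mostly Fer1HCH. Of the others, eater and NimB5 had no UMI, and only crq could be tested and did not pass. Visceral muscle markers summed to 1283 to 2196 scaled CPM in lipogenic cells and 1213 to 1545 in zero cells, higher in 5 of 6 tumors, with none of 3 tested called (1 higher in the fit with Tgrp) and Mlc1, Act57B and up without a UMI. Markers of dividing cells, 28 genes of the cell cycle and DNA replication, summed to 1599, 1189, 1368, 1308, 2016 and 2138 scaled CPM in lipogenic cells of Tind1 to Tind6, against 1163, 702, 671, 1162, 1361 and 2727 in zero cells, higher in every tumor but Tind6 and in Tgrp (1543 against 1085). None of 5 tested passed in the 6 tumors. In the fit with Tgrp 3 of 9 were higher and none lower, beside 8.86% higher and 14.8% lower of all its genes. Enteroendocrine markers summed to 61.1 to 238 scaled CPM in lipogenic cells and 183 to 419 in zero cells, lower in 6 of 6 tumors (in 4 of 6 with library size only), with none called. In Tgrp they went the other way, with 360 scaled CPM in lipogenic and 256 in zero cells. The part of these cells in the results was not tested.

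Members were also split by which of the 3 genes they held, in the libraries with enough cells. Heat shock genes summed to 8456 CPM (of all UMIs, unscaled) in the 316 Tind1 cells with 2 or 3 genes, 11984 in the 108 cells with FASN1 only and 17560.4 in the 61 cells without FASN1. The same sums were 2526, 2868 and 2226 CPM in Tind4 and 3507, 3718 and 3481 CPM in Tgrp, so the order did not hold there. fabp was lowest in cells without FASN1 in all 3 libraries, with 792, 699 and 505 CPM in Tind1, 509.9, 606 and 238 CPM in Tind4 and 701, 822 and 462 CPM in Tgrp, in the same order of subsets. These levels are descriptions of single libraries, and cells with ACC and ATPCL but no FASN1 count in both the first and the last subset. The subsets were not matched for depth, with a median of 4174, 3085.5 and 2471 UMIs in Tind1, 4875.5, 3731.5 and 3938.5 in Tind4 and 2667.5, 2331 and 1830.0 in Tgrp.

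Cells with exactly 1 UMI of the 3 genes, set against their own depth-matched zero cells, differed less. Only 21 of 2321 genes were called (0.905%; 3 or 0.129% higher, 18 or 0.776% lower). This comparison shares zero cells with the one above, so the values are given side by side. Acbp2 had a log2 fold change of 1.90 in lipogenic cells and 1.57 in cells with 1 UMI, fabp 1.10 and 0.55, Hsp26 -2.28 and -0.53, CG8620 -2.06 and -1.19, MtnE -3.83 and -1.92, and lncRNA:CR34335 -0.94 and -0.45.

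**Figure D5:**
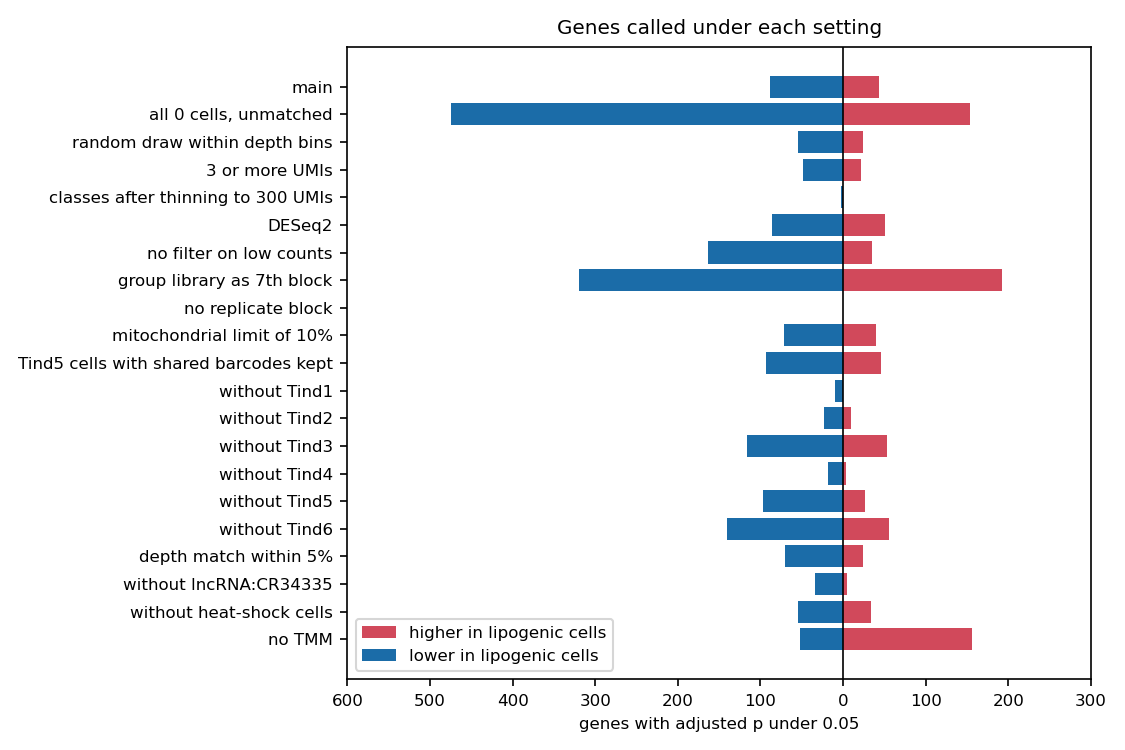
Number of genes with an adjusted p under 0.05, called higher (right of 0) or lower (left of 0) in lipogenic cells, under each setting. The first bar is the main setting with 43 higher and 89 lower, and the bar for library sizes without TMM is the only one in which higher genes outnumber lower ones (156 against 52).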

How the data were processed

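The authors aligned reads of 3′ v3.1 droplet libraries to genome r6.42 and made the deposited UMI counts, without normalization, by Cell Ranger 6.0.1. They cover 17619 entries, of which 8 are no FlyBase genes. The paper gives a mitochondrial limit of 15%, which was kept here. Doublets were not removed.

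Members and gene lists were chosen with earlier results of these data known. FASN1, ACC and ATPCL were left out of all sums and depths. Lipogenic cells were paired, deepest first, with the unused zero cell of their library nearest in UMIs, within 20%. The counts of a class were added up within each tumor. The quasi-likelihood test of edgeR 4.0.16 (R 4.3.3) had the tumor as block, TMM scaling and filterByExpr, with Benjamini-Hochberg adjustment over 1306 genes. That filter on low counts can keep a gene on its level in only 1 of the classes. Both sums of a pair come from the same tumor, which is the pairing. On simulated data with a log2 change of 1 in 200 of 1306 genes, 93% were recovered and 3.63% of the calls were false. The simulated counts had 1 mean per gene over all tumors, the same fold in each tumor and no effect of cell depth. These rates therefore need not hold for the real calls. Log2 ratios of single genes had 1 UMI shared between classes in proportion to their totals, and were tested with exact two-sided sign-flip permutations over the 6 tumors (numpy 2.4.6, scipy 1.17.1). Thinning drew 300 UMIs per cell. Alternatives included DESeq2 1.42.0. Named genes were the 3 genes of the rule, 7 genes the study names, the 12 largest rises and 12 largest falls with 1 sign in every tumor holding 5 or more UMIs (at least 4 such tumors), and up to 4 genes of smallest p per list; others are said to have been chosen after their values were seen. These are Acbp2, MtnE, MtnD, Gadd45, Fer2LCH, HmgD, awd, Ras85D, MtnA, Hsp68, Hsp70Bc, DnaJ-1, lncRNA:Hsromega, COX8, ND-MWFE, ND-PDSW, lncRNA:CR34335 and, in the fit with Tgrp, called genes of the lipid and supply lists.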

Additional observations from a re-analysis of the deposited data

Results flagged for a closer look

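In 4 of 30 sets of 6 tumors examined, 1 tumor lay far from the other 5 in its log2 ratio of lipogenic over zero cells, and chance alone gives about 1 in 20. Shmt stood at 3.02 in Tind5, CG17224 at 2.73 in Tind5, Neb-cGP at 2.48 in Tind5 and ox at 2.67 in Tind3. These rest on 16 UMIs in lipogenic and 1 in zero cells for Shmt, 13 and 1 for CG17224, 27 and 3 for Neb-cGP, and 10 and 1 for ox. Each gene was also higher in lipogenic cells of the other 5 tumors and of Tgrp.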

How the results depend on the processing

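The count of 132 called of 1306 tested genes moved by more than 1.5 times under several settings. The number of genes tested differed between most settings too. The count was 629 of 3894 with all zero cells unmatched for depth, 512 of 2167 with Tgrp as a seventh block and 208 of 1306 without TMM. It was 78 of 1213 with zero cells drawn at random within depth bins and 71 of 726 with 3 or more UMIs as the rule. It was 39 of 1215 without lncRNA:CR34335 and 3 of 1452 with classes drawn after thinning to 300 UMIs (2 of them among the 132). Without the replicate block, so with the spread between tumors left in, 0 of 755 tested genes passed in edgeR, and 97 had an unadjusted p under 0.05. Leaving out 1 tumor gave between 10 of 504 tested genes (without Tind1) and 196 of 1868 (without Tind6). DESeq2 gave 137 of 1306 (114 of them shared), no filter on low counts 198 of 9779 (97 shared) and a depth match within 5% 94 of 1346 (86 shared). A mitochondrial limit of 10% gave 112 of 1072 (93 shared), and Tind5 cells with shared barcodes kept 139 of 1339 (131 shared). The settings without TMM, without lncRNA:CR34335, without heat shock cells and with the 5% match were chosen after the data were seen.

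Of 1354 values of 75 named genes under these settings 1351 kept their sign. MtnA (0.31) and Lsd-2 (0.21) turned with classes after thinning, and Ras85D (-0.085) with random draws. The log2 ratio of ACC stayed between 1.38 and 2.01 when 1 tumor was left out, where p cannot pass 0.05 with 5 tumors, and was 1.86 with 3 or more UMIs, which also left 5 tumors, all 5 higher. With the 10% mitochondrial limit it was 1.39, higher in 4 of 6 tumors and no longer past the threshold. That of ATPCL ranged over -0.059 to 0.47 when 1 tumor was left out, was -0.059 without Tind2 and -0.24 with 3 or more UMIs. The share of lipogenic cells was 0.648% after thinning, against 10.0%. The cause of these changes was not tested. Depth limits the class: Tind3, Tind5 and Tind6 gave 14, 14 and 9 pairs of cells, and most lipid genes were too low to test in the 6 tumors.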
